A study of Mus musculus with 10 samples.

Results

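The circadian clock of epididymal white adipose tissue (eWAT) was described by 10 genes, *Arntl*, *Clock*, *Per1*, *Per2*, *Per3*, *Cry1*, *Dbp*, *Tef*, *Nr1d1* and *Nr1d2*. They were chosen by name, as all probes other than control spots that the array annotation assigns to 1 of these genes, and 13 of 55681 probes met this rule. *Per1*, *Dbp* and *Nr1d2* have 2 probes each and the other 7 genes have 1. RNA was measured on two-colour arrays in 10 mice of 1 group, with 1 array per mouse, and the mice are named here by the replicate number of their label. They were wild-type males of the substrain C57BL/6JOlaHsd, entered as C57BL/6J in the strain field, 9 weeks old at the start of feeding and labelled adult. All 10 ate a purified low fat diet for 3 weeks and a high fat diet for the next 12 weeks at 29°C, and then received 1 injection of the iron chelator desferrioxamine (DFO), 100 mg/kg, on each of 5 days. They were killed by decapitation on day 6, at the beginning of the light period, once food had been withheld for 2 h. The labels used here do not give the order or the clock hour at which single mice were killed. On each array the RNA of the mouse carried the dye Cy5, and a common pool carried Cy3. The pool holds RNA of all mice of the wider study, its control mice and a part of each of these 10 samples included. It is thus a reference and not a control group, and the untreated mice were not analysed here. The dyes were not swapped, so a bias of a probe for either dye enters its log2 ratio of mouse over pool, and none of these ratios was tested against 0. The comparisons below are those between mice.

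The clock is a loop of transcription that runs in nearly every cell and is set to the day. CLOCK and ARNTL (also called BMAL1) bind E-boxes as a pair and switch on the *Per* and *Cry* genes, whose proteins in turn block that pair. The same pair drives *Nr1d1* and *Nr1d2*, which encode the repressors REV-ERB alpha and REV-ERB beta, and these repress *Arntl* through ROR elements. *Dbp* is another of its targets, and *Dbp* and *Tef* encode PAR bZIP factors, which act on D-boxes. In a tissue with a running clock, *Arntl* therefore stands high at about the time of day when *Dbp* and *Nr1d1* stand low, and in white fat these genes are known to be among those with the widest daily swing.

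The promoters of the members are shown first, and their motifs were not tested against the levels of the genes. The RefSeq promoter table (build GRCm38.p6, 250 bases before to 50 after each start of transcription) holds 9 of the 10 members, with 1 to 3 starts each. Both strands were searched for the E-box CACGTG, for the D-box letters TTATGTAA and TTACGTAA, and for the ROR element letters TAGGTCA and TGGGTCA. None of these motifs contains another. An E-box stood in the windows of 3 members, *Per1*, *Cry1* and *Tef*, against 8.09% of 27025 genes in the table. The D-box was found in *Per3* alone among the members and in 1.23% of all genes, and the ROR element in *Arntl* alone and in 7.35% of all genes. *Clock*, *Dbp*, *Nr1d1* and *Nr1d2* had no match to any of these motifs. The matched letters are in capitals below, and each stretch is written 5′ to 3′ on the strand of its gene. A match is a description of the sequence, and the lack of a match says only that these letters are not in the window.

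Arntl (chr7:113207531-113207557, plus strand, the ROR element begins at base 31 after the start): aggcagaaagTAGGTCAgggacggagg
Per1 (chr11:69098756-69098815, plus strand, E-box ending 160 bases before the start): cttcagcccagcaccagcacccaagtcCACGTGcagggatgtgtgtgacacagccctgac
Per3 (chr4:151044806-151044880, minus strand, 2 D-boxes, the nearer ending 150 bases before the start): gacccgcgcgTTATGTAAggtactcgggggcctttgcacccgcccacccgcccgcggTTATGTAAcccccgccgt
Cry1 (chr10:85185082-85185141, minus strand, E-box ending 54 bases before the start): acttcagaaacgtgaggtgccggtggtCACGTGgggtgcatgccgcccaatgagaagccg
Tef (chr15:81802519-81802578, plus strand, E-box ending 121 bases before 1 of its starts): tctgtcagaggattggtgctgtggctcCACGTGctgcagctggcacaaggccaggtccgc
Tef (chr15:81811249-81811308, plus strand, E-box ending 132 bases before its other start): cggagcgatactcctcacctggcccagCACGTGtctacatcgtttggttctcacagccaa

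The array measures each gene through short DNA probes of 60 bases, whose positions the annotation gives on build mm9. The *Arntl* probe lies at chr7:120457261-120457320, that of *Clock* at chr5:76641377-76641436, that of *Per2* at chr1:93313046-93313105, that of *Per3* at chr4:150379256-150379315, that of *Cry1* at chr10:84594731-84594790 and that of *Tef* at chr15:81657221-81657280. The *Dbp* probes lie at chr7:52965322-52965381 and chr7:52965461-52965520, those of *Nr1d2* at chr14:19036568-19036627 and chr14:19037253-19037312, and those of *Per1* at chr11:68923364-68923423 and chr11:68919895-68919954. The *Nr1d1* probe is the only one whose 60 bases are spread over a longer stretch of the genome, 503 bases at chr11:98630526-98631028 on the minus strand, so that its bases come from separate stretches that are joined in the transcript. Its sequence is given for that reason, with no part in capitals.

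Nr1d1 probe: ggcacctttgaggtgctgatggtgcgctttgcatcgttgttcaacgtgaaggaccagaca

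A probe is called expressed here where its Cy5 signal was well above background on 5 or more arrays. All 10 members had such a probe, as 12 of their 13 probes and 27807 of all 55681 were expressed, and 8 members passed on 10 of 10 arrays. *Per3* was so on 8 arrays, and *Cry1* on 5 arrays in Cy5 and on none in Cy3, so that its ratios rest on a pool signal near the background. The second *Per1* probe was not well above background on any array in either channel and was not used further. Where a gene has more than 1 expressed probe, its brightest probe is reported.

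Before the members are compared, the mice need a description, because 4 of them stood apart. The first principal component of 27673 expressed probes, with the clock genes left out, held 75.16% of the variance between mice and set mice 4, 5, 6 and 7 (scores 0.28 to 0.45) against the other 6 (scores of -0.14 or lower). All 7 adipocyte markers were expressed, *Adipoq*, *Cfd* and *Lep* among them, as the label of the tissue asks. Their mean log2 ratio was -1.55 or lower in mice 4 to 7 and -0.20 or higher in the other mice, and their summed Cy5 signal above background ranged from 125000 to 711000 over the 10 mice. The mean over 7 expressed macrophage markers was 0.67 to 0.94 in mice 4 to 7 and -0.01 or lower in the others. In bulk tissue, fewer cells of a type and less RNA per cell cannot be told apart. The median Cy5 signal of an array was 54.8 to 81.3, its median background 32 to 37, and no spot was saturated.

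The members were next described by role, as log2 ratios over the pool (mean ± SD, n = 10). Over all expressed probes the median of the mean log2 ratio was 0.0030 and the median SD was 0.18.

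*Arntl*, the activator whose level swings most over the day, had a mean of -0.26 ± 0.47. Its values ran from -0.70 in mouse 1 over a median of -0.51 to 0.55 in mouse 7. It stood above 0 in mice 5, 7 and 8 alone (0.38, 0.55 and 0.26), while the other 7 lay at -0.23 or lower. Its partner *Clock* had a mean of -0.13 ± 0.30, and ran from -0.73 in mouse 4 over a median of -0.06 to 0.26 in mouse 9. The lowest 3 values of *Clock* were those of mice 4, 5 and 7, all of them mice low in adipocyte markers, so the partners did not share their order of mice.

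Among the *Per* and *Cry* genes, *Per1* had the widest range in the loess ratios and a mean of 0.19 ± 0.39. It ran from -0.27 in mouse 7 over a median of 0.16 to 0.97 in mouse 9, and it was below 0 in mice 4 to 7 and above 0 in the other 6. *Per2* had a mean of 0.06 ± 0.24 and ran from -0.23 in mouse 4 over a median of 0.15 to 0.34 in mouse 9. Its values fell in 2 separate groups, with mice 3, 4, 5 and 7 at -0.19 or lower and the other 6 at 0.13 or higher. *Per3* had a mean of 0.10 ± 0.35, from -0.32 in mouse 7 over 0.11 to 0.71 in mouse 10. Its probe was dim, and its log2 ratios from the scanner software ran from -1.91 in mouse 7 to 1.22 in mouse 9. *Cry1*, the cryptochrome on the list, showed the least spread in the loess ratios, with a mean of 0.02 ± 0.14 and a range of -0.19 to 0.23. Its signal lay near the background, so this spread may say little of the gene. Its log2 ratios from the scanner software ran from -1.08 in mouse 3 to 1.17 in mouse 9. Of all expressed probes, 70.3% had a larger SD of the loess ratio than *Cry1*.

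The PAR bZIP genes spread far more. *Dbp*, a direct output of the loop, had a mean of 0.29 ± 0.67 and ran from -0.69 in mouse 7 over a median of 0.52 to 1.13 in mouse 2, a range of 3.52-fold. It was below 0 in mice 5, 7 and 8 (-0.68, -0.69 and -0.40), which are the mice with *Arntl* above 0, and at 0.21 or higher in the other 7. Its second probe gave the same mice below 0 and an r of 0.987 with the first over mice, with a largest difference of 0.256. *Tef*, which encodes a related factor, had a mean of 0.11 ± 0.52, from -0.78 in mouse 7 over 0.23 to 0.63 in mouse 10. Only 5.06% of expressed probes had a larger SD of the log2 ratio than *Dbp*, and 9.19% a larger one than *Tef*.

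The REV-ERB genes, which feed back on *Arntl*, resembled the PAR bZIP genes. *Nr1d1* had a mean of -0.0046 ± 0.65 and ran from -1.10 in mouse 5 over a median of 0.14 to 0.72 in mouse 10, a range of 3.53-fold. Mice 5 and 7 lay far down, at -1.10 and -1.08, followed by mouse 8 at -0.22. *Nr1d2* had a mean of 0.45 ± 0.36, from -0.16 in mouse 8 over 0.59 to 0.82 in mouse 10. Its values again fell in 2 separate groups, with mice 5, 7 and 8 at 0.11 or lower and the other 7 at 0.54 or higher. Its second probe had an r of 0.919 with it over mice. No member had all 10 mice on the same side of 0. Only 7.09% of expressed probes did, so this does not set the members apart.

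**Figure D1:**
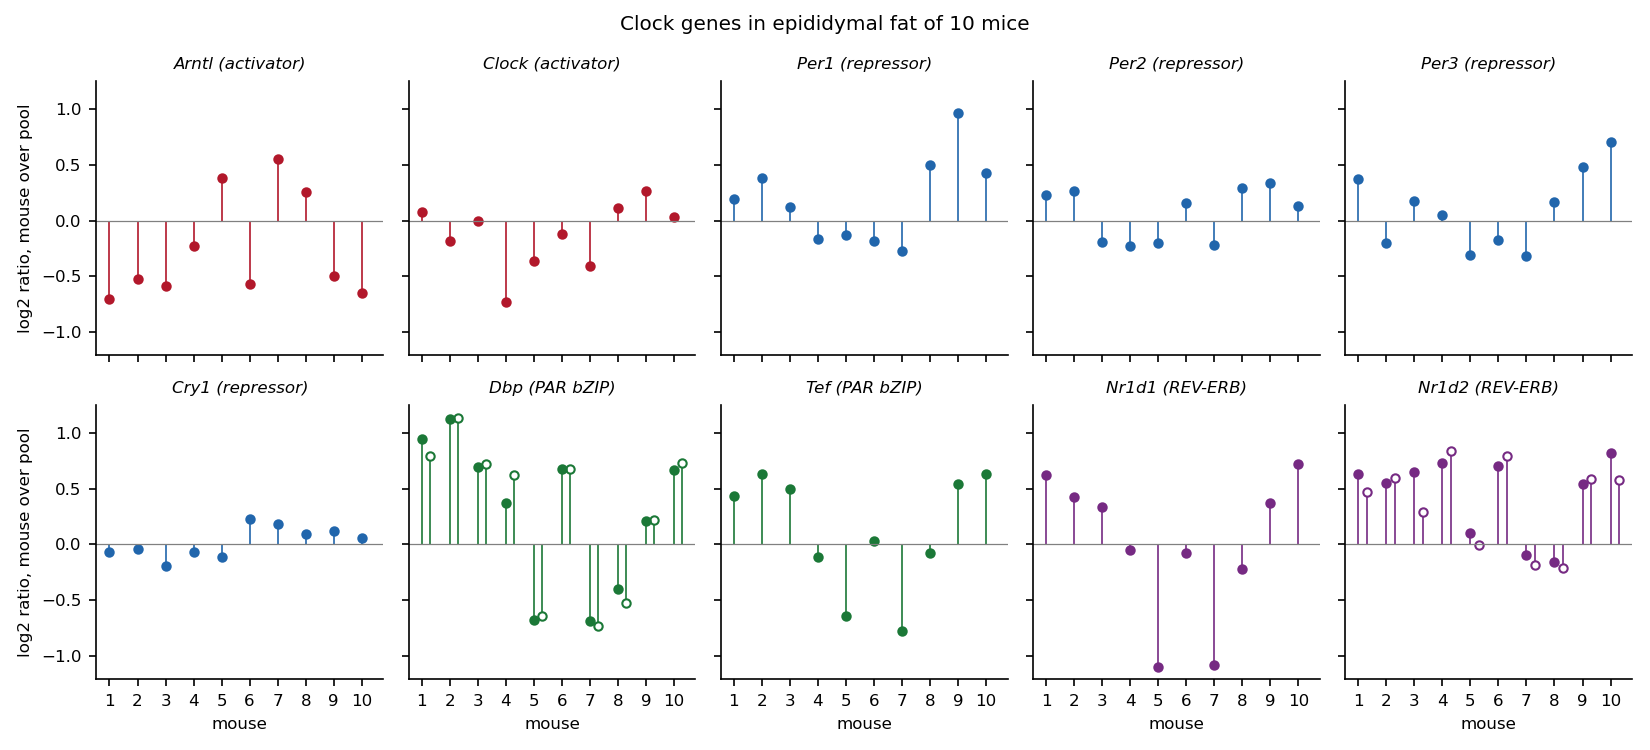
Log2 ratio of mouse over pool (y axis) of each clock gene in the 10 mice (x axis), with filled points for the brightest probe and open points for a second expressed probe; stems run from 0. *Arntl* stood above 0 in mice 5, 7 and 8, where *Dbp* stood below 0 and *Nr1d2* at 0.11 or lower.

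The level of a member against the pool depended on the scaling. Centring each array on its median in place of loess moved the median over all expressed probes to 0.32. Relative to the median of its own scaling, *Arntl* lay at -0.26 with loess and at -0.13 with median centring, *Clock* at -0.14 and 0.001, *Dbp* at 0.29 and 0.51, and *Nr1d2* at 0.45 and 0.60. *Tef* moved from 0.11 to 0.41 and *Per1* from 0.18 to 0.40. *Per2*, *Per3* and *Cry1* lay above the median with loess (0.05, 0.09 and 0.02) and below it with median centring (-0.07, -0.24 and -0.34). The log ratios of the scanner software placed *Cry1* at 0.37, the largest move of a member under that scaling.

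It was then asked whether the members varied more between mice than the array itself does. The pool is the same on each array, so its Cy3 spread shows the variation that normalized arrays give to 1 RNA. As the dyes were not swapped, it does not show how Cy5 itself varies, nor the preparation of each mouse RNA. A larger variance in Cy5 is thus not by itself a difference between mice. Of the 9 members with both channels well above background on at least 5 arrays, 8 had a larger variance in log2 Cy5 than in log2 Cy3 (Pitman-Morgan test, Benjamini-Hochberg adjusted p under 0.05). The same call was made for 59.8% of all 25049 probes tested, so the count is no property of clock genes as such. The SD of log2 Cy5 was 0.73 for *Dbp* against 0.08 in Cy3 (adjusted p = 3.82e-07 in the Pitman-Morgan test), 0.67 against 0.10 for *Nr1d1*, 0.52 against 0.05 for *Tef* and 0.51 against 0.09 for *Arntl*. Over all probes tested the median SD was 0.20 in Cy5 and 0.08 in Cy3, and 4.9% of probes had a larger Cy5 SD than *Dbp*, 6.26% than *Nr1d1*, 11.4% than *Tef* and 11.8% than *Arntl*. For *Per3* the SDs were 0.26 and 0.17, and the difference did not pass (adjusted p = 0.322, Pitman-Morgan test over all probes). *Cry1* was not tested, as its Cy3 was not above background. With the signals processed by the scanner software only *Arntl* and *Nr1d1* passed, beside 29.2% of all probes, and without normalization between arrays *Arntl*, *Dbp*, *Nr1d1* and *Per2*, beside 18.7%. With the slide as a block *Per2* and *Nr1d2* did not pass and 6 members did, beside 39.9% of probes. Without background subtraction *Per3* passed too, beside 61.5% of probes.

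**Figure D2:**
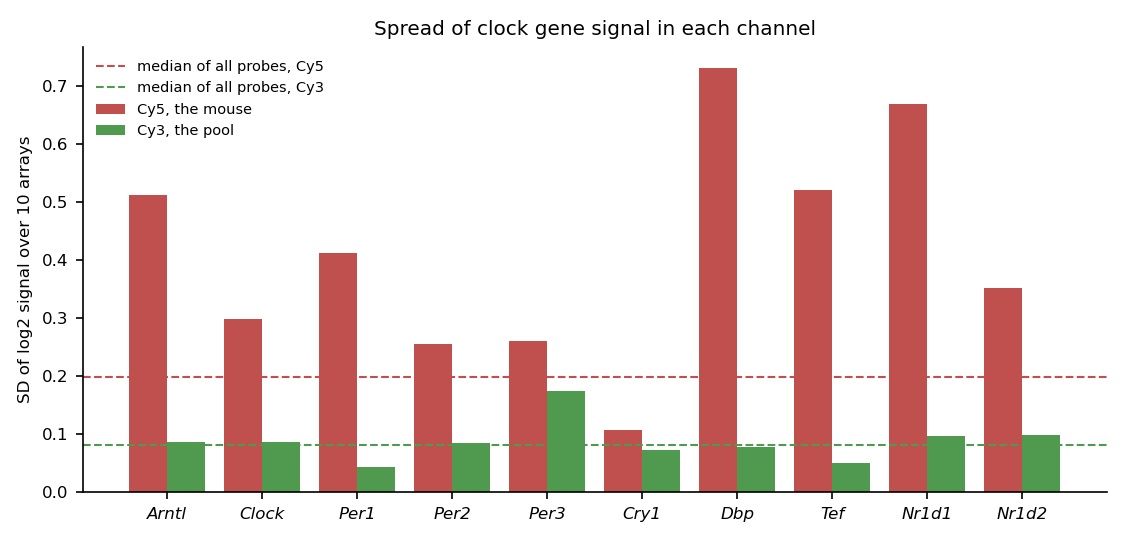
SD of normalized log2 signal over the 10 arrays (y axis, bars from 0) for each clock gene, in Cy5 (the mice, red) and Cy3 (the pool, green); dashed lines give the medians over all probes tested, 0.20 and 0.08. The bars of *Dbp* and *Nr1d1* are the tallest in Cy5 and those of *Cry1* the lowest.

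The relations between members across mice were tested next, over 44 of the 45 pairs. *Per2* and *Nr1d2* part the mice into separate groups, so pairs with either gene were taken within its larger group (6 mice for *Per2*, 7 for *Nr1d2*), and the pair of both, with 5 mice in common, was not tested. After adjustment over the pairs 8 passed, all among the 28 pairs measured over 10 mice, 3 of them with r below 0 and 5 with r above 0. The share of pairs that would pass among all expressed probes was not tested, so this count has no background beside it. *Arntl* fell as *Dbp*, *Nr1d1* and *Tef* rose. By size of r with *Arntl*, of either sign, these genes were ranks 2, 6 and 14 of 27715 expressed probes. Its r was -0.939 with *Dbp* (permutation p = 0.00053, adjusted p = 0.00777), -0.922 with *Nr1d1* (permutation p = 0.00019, adjusted p = 0.00462) and -0.903 with *Tef* (permutation p = 0.00075, adjusted p = 0.00825). The outputs and *Nr1d1* rose together, with r = 0.97 for *Tef* and *Nr1d1* (permutation p = 0.00021, adjusted p = 0.00462), 0.873 for *Dbp* and *Nr1d1* (permutation p = 0.0011, adjusted p = 0.00968) and 0.852 for *Dbp* and *Tef* (permutation p = 0.00238, adjusted p = 0.0175). *Clock* and *Per1* had an r of 0.779 (permutation p = 0.00786), and *Per3* and *Nr1d1* 0.764 (permutation p = 0.00873), both with an adjusted p of 0.048.

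By rank the same 6 relations of *Arntl*, *Dbp*, *Tef* and *Nr1d1* had the same signs and missed the threshold. Spearman's rho was -0.83 for *Arntl* and *Dbp* (permutation p = 0.00472, adjusted p = 0.0626), -0.842 for *Arntl* and *Nr1d1* (permutation p = 0.0039, adjusted p = 0.0626) and -0.745 for *Arntl* and *Tef* (permutation p = 0.0174, adjusted p = 0.108). It was 0.879 for *Tef* and *Nr1d1* (permutation p = 0.0016, adjusted p = 0.0626), 0.733 for *Dbp* and *Nr1d1* (permutation p = 0.0196, adjusted p = 0.108) and 0.685 for *Dbp* and *Tef* (permutation p = 0.0347, adjusted p = 0.127). For *Clock* and *Per1* it was 0.818 (permutation p = 0.00569, adjusted p = 0.0626) and for *Per3* and *Nr1d1* 0.745 (permutation p = 0.0163, adjusted p = 0.108). No pair passed by rho (lowest adjusted p = 0.0626), and 13 of 44 had an unadjusted permutation p under 0.05.

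Most of these relations were smaller without mice 5 and 7. These are the 2 mice farthest from the median of *Arntl*, and without them its r was -0.851 with *Dbp* (exact permutation p = 0.0154), -0.766 with *Nr1d1* (exact permutation p = 0.00761) and -0.7 with *Tef* (exact permutation p = 0.0328), with no pair passing after adjustment. Without the same mice r was 0.907 for *Tef* and *Nr1d1*, 0.639 for *Dbp* and *Nr1d1* and 0.592 for *Dbp* and *Tef*. Without mice 4 and 7 it was 0.771 for *Clock* and *Per1*, and without mice 7 and 10 it was 0.635 for *Per3* and *Nr1d1*. The gap in *Arntl* between mouse 4 and mouse 8 came to 0.385 of its range, just under the 0.4 at which values were called separate groups. Within the 7 mice below that gap, a choice made after the data were seen, r was -0.522 with *Dbp*, -0.692 with *Nr1d1*, -0.641 with *Tef* and 0.0119 with *Nr1d2*. In the same 7 mice r was 0.873 for *Tef* and *Nr1d1*, 0.697 for *Clock* and *Per1*, 0.693 for *Per3* and *Nr1d1*, 0.373 for *Dbp* and *Nr1d1* and 0.365 for *Dbp* and *Tef*. None of the 8 relations passed within these 7 mice.

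The relations of *Arntl* kept their sign and stayed at -0.83 or below within slides and with the component that parts mice 4 to 7 held constant. In the differences between the 2 mice of each of the 5 slides, a value with no test, r was -0.933 with *Dbp*, -0.926 with *Nr1d1* and -0.83 with *Tef*. With the first component as a covariate r was -0.928, -0.929 and -0.934. Mice 5 and 6 shared a slide and were both low in adipocyte markers. *Arntl* was 0.38 in mouse 5 and -0.57 in mouse 6, and *Dbp* was -0.68 in mouse 5 and 0.68 in mouse 6. No other slide had so wide a difference in either gene, so the values of r within slides lean on this pair, which includes mouse 5. On the slide of mice 1 and 2 both genes were higher in mouse 2 (*Arntl* -0.52 against -0.70, *Dbp* 1.13 against 0.95). Mouse 8 lay with mice 5 and 7 in *Arntl*, *Dbp* and *Nr1d2* but had a mean adipocyte log2 ratio of 0.58. With the same covariate r was 0.0466 for *Clock* and *Per1* and 0.38 for *Per3* and *Nr1d1*, and neither passed. With median centring, under which the median of the expressed probes ran from -0.11 to 0.47 over arrays (-0.002 to 0.019 with loess), the r of *Arntl* was -0.591 with *Dbp*, -0.678 with *Nr1d1* and -0.438 with *Tef*, and none of the 3 passed. All 3 passed with the log ratios of the scanner software and with the deposited table of normalized values.

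**Figure D3:**
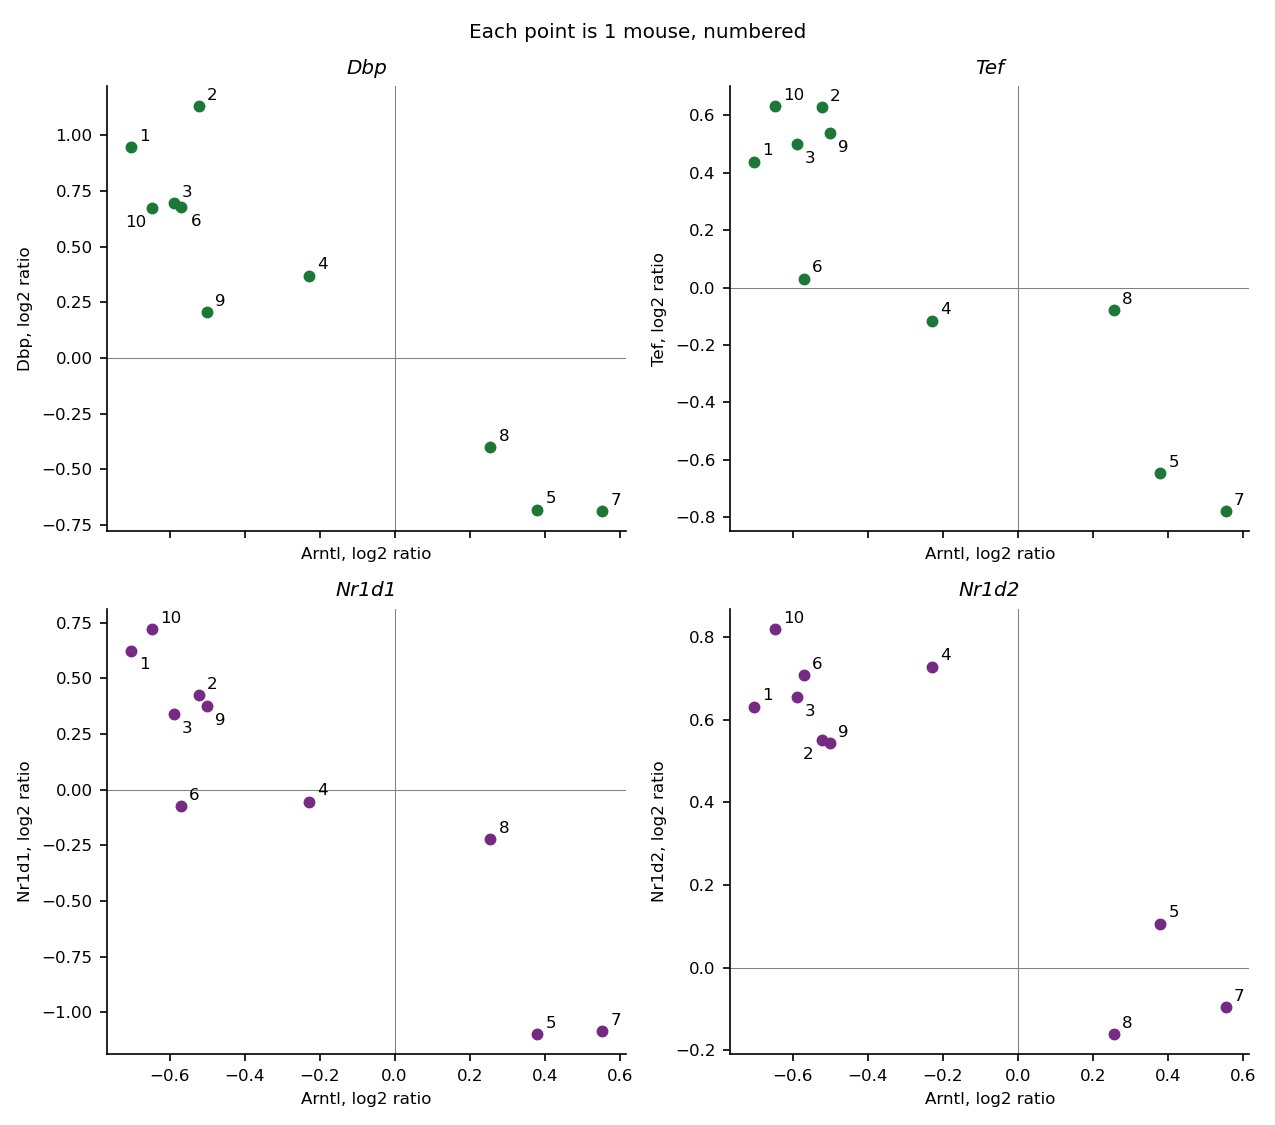
Log2 ratio of *Dbp*, *Tef*, *Nr1d1* and *Nr1d2* (y axes) against that of *Arntl* (x axes), with 1 numbered point per mouse. Mice 5, 7 and 8 lie to the right in each panel and are the 3 lowest in *Dbp*, *Nr1d1* and *Nr1d2*; in *Tef* mouse 4 (-0.12) lies below mouse 8 (-0.08).

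**Figure D4:**
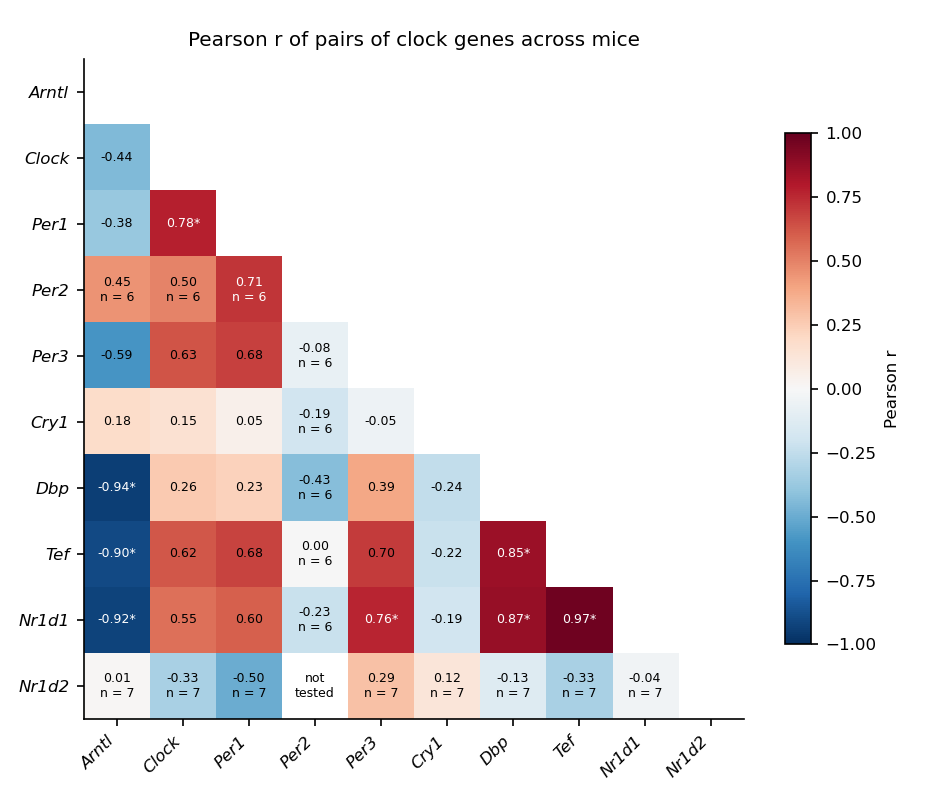
Pearson's r across mice for each pair of clock genes (colour and number), over 10 mice unless a smaller n is written in the cell; stars mark an adjusted permutation p under 0.05. The 8 stars lie in the column of *Arntl*, among *Dbp*, *Tef* and *Nr1d1*, and at *Clock* with *Per1* and *Per3* with *Nr1d1*.

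To see where the members stand among all genes, each expressed probe was regressed on *Arntl* with limma. None of 27806 probes passed at an adjusted p of 0.05, which is 0% rising and 0% falling, and so none of the 9 other members did. At an unadjusted p under 0.05, 5.78% of probes had a slope above 0 and 9.79% a slope below 0, against 0 and 5 of the 9 members. Of the 6 probes of lowest p, 5 belonged to 4 members: *Dbp* was rank 1 with a slope of -1.32 ± 0.158 (SE; limma p = 5.67e-06, adjusted p = 0.158), its second probe was rank 2, and *Nr1d1* was rank 3 with a slope of -1.26 ± 0.173 (limma adjusted p = 0.174). *Tef* was rank 5 (slope -0.99 ± 0.156) and *Nr1d2* rank 6 (slope -0.69 ± 0.113), both with a limma adjusted p of 0.313. *Per3* had a slope of -0.44 ± 0.192 and a limma p of 0.0453, at rank 3850. *Clock*, *Per1*, *Per2* and *Cry1* lay at rank 11660 or later. *Dbp* and *Nr1d1* were among the 10 probes of lowest p in 18 of 20 alternatives each, and not with median centring or a robust fit. *Tef* was among them in 16 of 20 and *Nr1d2* in 12 of 20. *Nr1d2* was not among them with the scanner log ratio, the deposited values or the slide as a block. The alternatives include those that leave out 1 mouse each, which share most of their mice. With the first component as a covariate 3 probes passed in all, both probes of *Dbp* and the brighter probe of *Nr1d2*.

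Regressed on *Dbp* in the same way, 0% of 27805 probes rose and 0% fell at an adjusted p of 0.05, and at an unadjusted p under 0.05 4.84% had a slope above 0 and 2.56% below 0. *Arntl* had the lowest p of all (slope -0.67 ± 0.0852, limma p = 1.07e-05, adjusted p = 0.297). *Nr1d1* was rank 5, *Tef* rank 10 and *Nr1d2* rank 13, each with a limma adjusted p of 0.541 and a slope above 0.

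**Figure D5:**
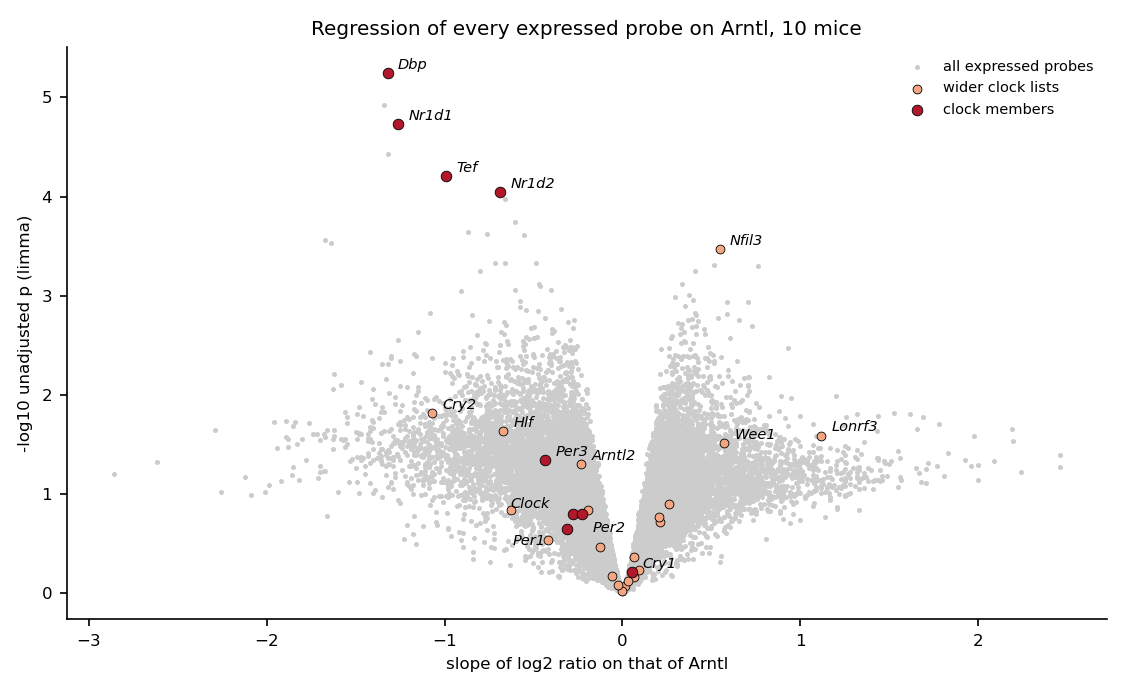
Slope on *Arntl* (x axis) and -log10 of limma's unadjusted p (y axis) for all 27806 expressed probes (grey), with the clock members in red and the genes of the wider clock lists in orange. *Dbp*, *Nr1d1*, *Tef* and *Nr1d2* lie at the top left, and *Nfil3* is the highest of the clock genes on the right.

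Of the other genes of the loop, 9 of 12 were expressed and none passed on *Arntl*. At an unadjusted p under 0.05 (limma), 1 of the 9 had a slope above 0 and 3 a slope below 0. Of all probes, 5.78% and 9.79% did. *Nfil3*, which encodes a repressor that competes with the PAR bZIP factors for D-boxes, came closest, at rank 14 (slope 0.55 ± 0.105, limma p = 0.000339, adjusted p = 0.313). Its log2 ratios ran from -0.54 in mouse 10 to 0.38 in mouse 8, and the 3 highest were those of mice 5, 7 and 8 (0.16, 0.25 and 0.38). *Cry2*, the other cryptochrome, had a slope of -1.07 ± 0.371, and *Hlf*, the third PAR bZIP gene, of -0.67 ± 0.252. These 2 genes differed from *Dbp* in their order of mice: *Cry2* was at -0.66 or lower in mice 4 to 7 and at 0.17 or higher in the others, and *Hlf* at -0.43 or lower in mice 4 to 7 and at 0.20 or higher in the others. The part of the adipocyte share in the slopes of *Cry2* and *Hlf* was not tested. Mouse 8 was high in *Hlf* and low in *Dbp*, and mice 4 and 6 the reverse. *Arntl2*, a relative of *Arntl*, ran from -0.53 to -0.01 with a slope of -0.23 ± 0.104. *Rora*, *Bhlhe40*, *Bhlhe41* and *Timeless* had unadjusted limma p-values of 0.144 or higher on *Arntl* at their brightest probe. A second probe of *Bhlhe41* had a slope of 0.43 ± 0.156 (limma p = 0.0197, adjusted p = 0.313). *Npas2*, *Rorb* and *Ciart* were not expressed.

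At its brightest probe, none of the 7 expressed kinases and ligases of clock proteins had an unadjusted limma p under 0.05 on *Arntl* (a second probe of *Fbxw11* had a p of 0.0454), and their median slope was 0.0165 against -0.0112 over all probes. Casein kinase genes were nearly flat over mice, *Csnk1d* from 0.12 to 0.40 and *Csnk1e* from -0.10 to 0.19. *Gsk3b*, *Btrc* and *Fbxw11* ranged between -0.68 and 0.26. *Usp2*, a ubiquitin protease whose RNA cycles in many tissues, was highest in mouse 2, the mouse with the highest *Dbp*, and ran from -0.83 in mouse 4 to 0.05 in mouse 1 over the other 9. Mouse 2 also stood apart in the 3 expressed sperm and testis genes, whose mean log2 ratio was -1.02 there and -2.10 or lower in the other mice; their part in these values was not tested. Among the 7 known outputs 5 were expressed and none passed. *Wee1*, a cell cycle kinase gene, had a slope of 0.57 ± 0.23, and *Lonrf3* of 1.12 ± 0.431. Both were at 0.41 or higher in mice 4 to 7 and at 0.17 or lower in the others, and so parted the mice as the macrophage markers did; the part of those cells in these slopes was not tested. *Nampt*, measured in 9 mice, *Tspan4* and *Rgs16* lay between -0.24 and 0.77. *Avp* and *Prok2*, outputs of the brain clock, were not expressed.

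The genes whose pattern over the 10 mice was most like that of a member were named by Pearson's r among expressed probes with a RefSeq symbol, as a description that says nothing of shared function. For *Arntl* they were *Gon4l* (0.978), *Hspa8* (0.934), *9830001H06Rik* (0.919), *Mob1a* (0.896) and *Meg3* (0.896). The lowest r with *Arntl* outside the members were those of *Pla2g2e* (-0.909), *Ltbr* (-0.905), *3110057O12Rik* (-0.9), *0610039H22Rik* (-0.897) and *4930511E03Rik* (-0.894). For *Dbp* those named among the highest were *Pla2g2e* (0.927), *Ubqln2* (0.923), *Bcas3* (0.898) and *Fam102a* (0.897), and the lowest *Hspa8* (-0.924), *Gon4l* (-0.916), *Mkks* (-0.914), *Adamts4* (-0.912) and *Dnaja1* (-0.909). *Pla2g2e*, a secreted phospholipase, and *Hspa8* and *Dnaja1*, a heat shock protein and its partner, were not on the clock lists. *Entpd5* was the gene most like both *Tef* (0.972) and *Nr1d1* (0.98). The nearest gene was *Tmem93* for *Clock* (0.988), *Ubxn2a* for *Per1* (0.99), *Ptges* for *Per3* (0.98) and *Mrpl35* for *Cry1* (0.928). For *Per2* and *Nr1d2*, whose mice fall in separate groups, *Pcgf5* and *2810002D19Rik* were nearest. None of these genes is in the wider clock lists.

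*Arntl* was also set against measures of the tissue and of the array, as 12 relations with p-values adjusted over them, and none passed. Within the 6 mice of the larger group by component score, r with that score was -0.0231 (exact permutation p = 0.958, adjusted p = 0.958). In the same mice r was 0.295 with the adipocyte mean and 0.0428 with the endothelial mean, which also part the mice. That group is mice 1, 2, 3, 8, 9 and 10, so mice 5 and 7, where *Arntl* was highest, are outside it. Over all 10 mice the r of *Arntl* with single adipocyte markers ran from -0.633 (*Plin1*) to -0.537 (*Lipe*). With single endothelial markers it ran from -0.552 (*Vwf*) to -0.316 (*Kdr*). These values were not tested. The r of *Arntl* over 10 mice was 0.511 with the macrophage mean, 0.47 with the immediate early genes, -0.146 with the glucocorticoid responsive genes, -0.485 with blood (0.264 without the 2 mice farthest from the median of blood), -0.229 with mesothelium and -0.332 with lymphocyte genes. It was -0.297 with the 3 expressed sperm and testis genes and -0.562 with *Rnase10*, the only expressed gene of the 5 on the epididymis list (rho -0.661, permutation p = 0.0436, adjusted p = 0.523). With the median Cy5 signal of the array it was 0.456 (permutation p = 0.187, adjusted p = 0.449). The lowest adjusted permutation p of the 12 was 0.449 for r and 0.523 for rho. For the macrophage mean rho was 0.527 (permutation p = 0.121, adjusted p = 0.607), and r without the 2 mice farthest from its median was 0.339. The mean of the 6 expressed glucocorticoid responsive genes had a rho of -0.139 with *Arntl* (permutation p = 0.707, adjusted p = 0.714). That mean joins genes of both signs. Singly, r with *Arntl* was 0.659 for *Dusp1* and 0.517 for *Sgk1*. It ran from -0.332 to -0.262 for *Fkbp5*, *Tsc22d3*, *Zbtb16* and *Cebpd*. Among the immediate early genes r was -0.635 for *Fosb* and above 0 for the others, up to 0.689 for *Egr1*. These single values were not tested.

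Slides, which hold 2 arrays each, were compared with the moderated F test of limma. No member and 0% of 27716 probes had an adjusted p under 0.05, and 5 members (*Arntl*, *Dbp*, *Tef*, *Nr1d1* and *Nr1d2*) and 4.1% of all probes had an unadjusted p under 0.05, the lowest of the members being 0.0175 for *Nr1d2* (limma adjusted p = 0.697). The members with an unadjusted p under 0.05 numbered 0 of 10 with the scanner log ratio, beside 1365 of 27716 probes. With the deposited normalized values they numbered 3 of 8, beside 1698 of 27056 probes. Mice 7 and 8, 2 of the 3 mice with *Arntl* above 0, shared a slide, and mouse 5 shared its slide with mouse 6, in which *Arntl* was -0.57.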

How the data were processed

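Epididymal fat of 10 mice was measured on 10 two-colour arrays. The authors deposited 1 scanner file per array, written by Agilent Feature Extraction 10.7.3.1 per the labels, with the intensity of each spot and of its background in both dyes, not normalized, and a log10 ratio of Cy5 over Cy3 normalized by that software. They also deposited a table of normalized values, log2 by its range, whose columns each have a median of 8.519232 and follow log2 Cy5 (r of 0.9938 to 0.9992); its centring method was not stated in the sources used here.

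From the intensities, background was corrected with normexp (offset 50) and loess was applied within arrays, with Aquantile between arrays for single channels (limma 3.58.1, R 4.3.3). Control spots and outlier spots were left out, and the 59305 remaining spots gave 55681 probes. An expressed probe had Cy5 well above background on at least 5 arrays. Regressions and the slide test used limma's lmFit and eBayes with Benjamini-Hochberg adjustment over all probes, threshold 0.05. Pairs used 100000 permutations over 10 mice and all permutations over fewer (Python 3.11.15, numpy 2.4.6, scipy 1.17.1). Values were called separate groups where a gap that left 3 or more mice on either side reached 0.4 of the range. Scripts were tested on simulated data. The number of arrays and the margin over background limit the precision.

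The members, lists and tests were chosen with earlier results of these data known. The genes named are all members, the wider clock lists, for each member the gene of highest r (for *Arntl* and *Dbp* the 5 highest and 5 lowest), and list genes whose values stand beside a result. Alternatives changed the signals, background, normalization, filter, probe, slide, first component, fit and mice. A few genes that these rules name are not reported here.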

Additional observations from a re-analysis of the deposited data

How the results depend on the processing

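The signs of the 8 pair relations that passed held under each alternative in which they were computed. Counted over all pairs tested in a setting, 8 of 44 passed in the main setting. The number was 0 of 44 with Spearman's rho, 5 of 44 with median centring and 0 of 28 without the 2 farthest mice. Within the 7 mice lower in *Arntl* (chosen after the data were seen) it was 0 of 36. It was 5 to 10, of 36 or 44 pairs, when each mouse was left out, the lowest without mouse 5 or mouse 7. It was 6 of 44 with the first component as a covariate and 9 of 44 with the scanner log ratio. With the deposited normalized values, which lack *Per3* and *Cry1*, it was 6 of 27. The members passing on *Arntl* were 0 in the main setting, where 0 of 27806 probes passed. They were 1 with the deposited values (*Nr1d1*, where 1 of 27146 probes passed) and 2 with the first component (3 of 27806 probes). With a robust fit 5 members passed, beside 17.2% of all probes. When each mouse was left out 0 to 1 passed (*Dbp* without mouse 2, where 1 of 27806 probes passed). The other 7 alternatives that kept all mice gave 0. On *Dbp*, 1 member (*Arntl*) was among the 8 of 27805 probes that passed with a robust fit, and 0 passed under each other alternative. The number of members more variable in Cy5 was 8 in the main setting, beside 59.8% of all probes tested. It was 2 with scanner signals (29.2% of probes) and 4 without normalization between arrays (18.7%). With the slide as a block it was 6 (39.9%), and without background subtraction 9 (61.5%). The slide test gave 0 under each of 8 alternatives, and leaving out a mouse was not run for it, since a slide would hold 1 array. No paired analysis was possible because the mice form 1 group. The causes were not tested. With 10 arrays of 1 group and no time points, relations between mice are all that these data can show, and dim probes (*Cry1*, *Per3*) limit what can be said of those genes.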
